A study of Mus musculus with 180 samples.

Results

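The comparison described here sets ribosome-bound RNA of Camk2a neurons against the unselected RNA of the same membrane fraction. Its members are the 30 libraries whose titles carry HA_PELL and the 30 that carry Input_PELL, 60 of the 180 libraries of the series, joined into 30 pairs by the mouse number that ends each title. The mice were male offspring of a parent with the transgene Tg(Camk2a-cre)T29-1Stl on a B6.Cg background and a parent with the allele Rpl22tm1.1Psam on B6N.129. All groups carry both alleles, so that Cre under the Camk2a promoter switches on an HA-tagged ribosomal protein Rpl22, and antibody against HA then draws down tagged ribosomes with the RNA they hold. Every mouse gave both libraries, and no mouse lacks the tag. The 4 groups were mice with contextual fear conditioning and sleep deprivation (CFC SD, 7 mice), conditioning and undisturbed sleep (CFC Sleep, 8), no conditioning and sleep deprivation (NoCFC SD, 7), and no conditioning and undisturbed sleep (NoCFC Sleep, 8). Age and the length of the deprivation were not given in the sources used here. The labels give the tissue as brain and the cell type as neuron, the title of the series names the hippocampus as their origin, and the Camk2a promoter drives Cre mainly in excitatory forebrain neurons.

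Ribosomes that make secreted and membrane proteins are docked on the endoplasmic reticulum, where the signal recognition particle and the translocon hand the growing chain through the membrane, and these ribosomes sediment with membranes after homogenization. In the hippocampus the pyramidal neurons of areas CA1 to CA3 and the granule cells of the dentate gyrus are excitatory and use Camk2a, a kinase of synaptic plasticity. Interneurons, glia and vessel cells lie between them and contribute to unselected RNA. Immunoprecipitation of tagged ribosomes therefore sorts RNA by cell and by ribosome attachment, while a membrane pellet can also hold mitochondria and nuclear debris.

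Capture libraries held 15.1 to 27 M (mega-counts) and Input libraries 12 to 24 M. Input libraries of mice 16, 22 and 30 stood apart: their correlation with the median Input profile was 0.962 to 0.977, against 0.990 to 0.996 in the other 27. In these 3 Input libraries Camk2a was at 830.1 to 1089 CPM (a count scaled by the size of its library), against 2060.4 to 2909 CPM in the other 27, and counts without these mice stand beside the results. All 3 belong to CFC groups. The capture library of mouse 22 had the lowest correlation among the captures, 0.982. By number, the first 11 mice were NoCFC and the next 11 (12 to 22) were CFC, and each group had 2 mice among numbers 23 to 30. The labels name no batch, and these runs of mouse numbers are used below only to split the data.

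The capture and Input profiles differed widely. Of 16128 genes tested, 311 (1.93%) were at least 2-fold higher in the capture and 2735 (17%) at least 2-fold lower, at an adjusted p under 0.05 (edgeR quasi-likelihood test with the mouse as a block, Benjamini-Hochberg adjustment). These are the genes called higher or lower in what follows. Without a minimum fold, 6629 genes (41.1%) were higher and 6922 (42.9%) lower. The median log2 fold change over all genes tested was -0.02. Losses were also larger than gains: 593 genes were at least 4-fold lower and 7 at least 4-fold higher. Without mice 16, 22 and 30 the counts were 296 higher (1.81%) and 2888 lower (17.7%) among 16324 genes, and 272 higher and 2710 lower calls were shared with the fit of all mice. In whole tissue RNA, fewer cells of a type and less RNA per cell cannot be told apart, and a capture value is a share of the captured RNA, not an amount.

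Camk2a, whose promoter defines the captured cells, had 3126, 3905 and 5055 CPM (lowest, median and highest) in the captures, against 830.1, 2427 and 2909 CPM in the Inputs. The groups did not overlap, and the capture was higher in 30 of 30 mice. The log2 fold change was 0.79 ± 0.07 (± SE throughout, n = 30 pairs, adjusted p = 7.8e-11), short of a fold of 2, and 0.65 without mice 16, 22 and 30. Rpl22, the gene that carries the tag, had 19.9, 25.8 and 30.1 CPM in the captures, against 24.2, 27.7 and 33.8 CPM in the Inputs. It was lower in the captures by a small margin (log2 fold change -0.10 ± 0.03, adjusted p = 0.000296), with overlapping groups. The counts do not separate the tagged from the untagged allele. Values this near 0, here and below, depend on the scaling of the libraries. With another scaling (upper-quartile) the median over all genes was -0.07, against -0.02 with the one used here. Rps6, the ribosomal protein that the other capture of the series targets in its phosphorylated form, was at 0.06 ± 0.03 and did not pass (adjusted p = 0.0501).

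Among called genes with an average log2 CPM of at least 3, the 12 with the largest gain encode kinases, calcium pumps, a glutamate receptor subunit and proteins of several other kinds. Hipk4, a protein kinase of the homeodomain-interacting family, had 62.1, 86.2 and 109.7 CPM in the captures, against 18.7, 25.4 and 35.2 CPM in the Inputs. No capture came as low as any Input, and the log2 fold change was 1.76 ± 0.03 (adjusted p = 1.85e-38). Lmtk3, a membrane-anchored kinase of the lemur tail family, had 30.7, 43.1 and 67.7 CPM in the captures, against 2.97, 14.3 and 20.9 CPM in the Inputs. Its log2 fold change of 1.78 ± 0.08 was the largest of the 12 and came to 1.65 without mice 16, 22 and 30, whose Inputs held 2.97 to 3.94 CPM.

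The plasma membrane calcium pumps Atp2b1 and Atp2b4 were higher by 1.48 ± 0.02 and 1.51 ± 0.04 on the log2 scale. Atp2b1 had 2990.4, 3792 and 4601 CPM in the captures, against 1099, 1329 and 1637 CPM in the Inputs, again without overlap. Grin2b, the NMDA receptor subunit GluN2B, had 800.0, 1049 and 1315 CPM in the captures, against 282, 372 and 452 CPM in the Inputs (1.47 ± 0.02). Hsp90aa1, a cytosolic chaperone, was at 1.5 ± 0.02. Its captures held 1248, 1533 and 1871 CPM and its Inputs 449, 540.2 and 636 CPM.

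The others among the 12 were Sh3pxd2a, a scaffold of podosomes (1.64 ± 0.05), Galnt17, of the family that starts O-glycosylation in the Golgi (1.59 ± 0.03), and Wipf3, a partner of actin-nucleating WASP proteins (1.57 ± 0.02). Zc3h13, a subunit of the RNA m6A methylation complex, was at 1.54 ± 0.03, Efcab6, a calcium-binding EF-hand protein, at 1.54 ± 0.07 and Lars2, the mitochondrial leucyl-tRNA synthetase, at 1.5 ± 0.05. Lars2 had log2 ratios of 1.75 to 2.16 in mice 16, 22 and 30, against 1.17 to 1.71 in the other mice. Zc3h13 went the other way, at 1.12 to 1.36 in these mice, against 1.37 to 1.88. All 12 were higher in 30 of 30 mice with no overlap between the groups. They were picked for large changes in these same libraries, so this adds no separate support. The share of all genes without overlap was not computed. In 4 of these genes, Lmtk3, Wipf3, Atp2b4 and Grin2b, exons overlap another gene. The counting strand was not given in the sources used here, so reads of overlapping genes cannot be told apart, and Hsp90aa1 has processed copies in the genome that can share reads.

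**Figure D1:**
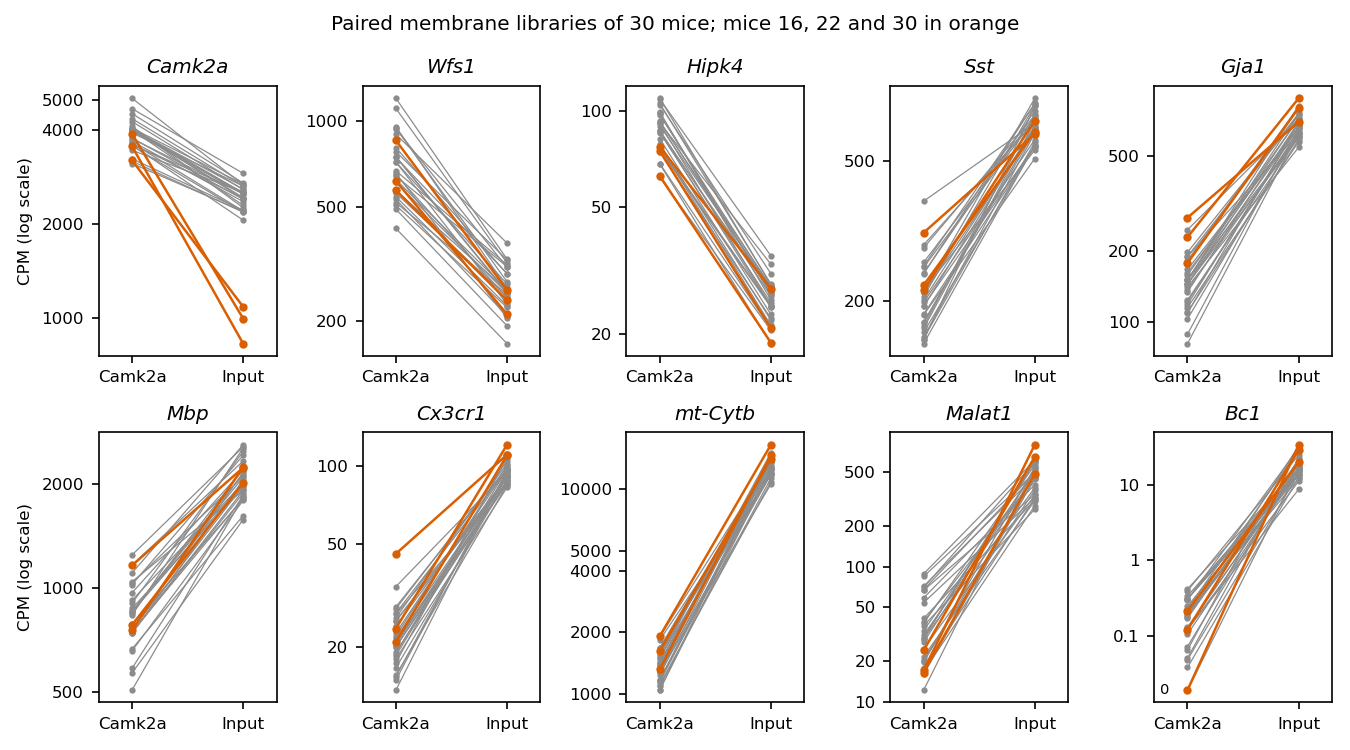
CPM on log axes in the Camk2a capture (left) and Input (right) of each of 30 mice for 10 genes, with a line per mouse and mice 16, 22 and 30 in orange. Camk2a, Wfs1 and Hipk4 were higher in the capture of all 30 mice, the other 7 genes lower in all 30, and the 2 Bc1 captures with no read are drawn at the bottom and marked 0.

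Markers of excitatory principal neurons separated by hippocampal area. The background for the capture lists below is the share of all genes called, 1.93% higher and 17% lower, and the all-gene median of -0.02. For counts of genes that passed above or below 0 at any fold, it is 41.1% of all genes above and 42.9% below. Of 13 CA1 pyramidal markers tested, 6 were called higher, none lower, and all 13 passed with a positive change (median log2 fold change 0.93). Wfs1, a protein of the endoplasmic reticulum membrane that marks CA1, had 420.3, 662 and 1199.7 CPM in the captures, against 166, 253 and 373 CPM in the Inputs. The groups did not overlap, and the log2 fold change was 1.43 ± 0.04. Pou3f1, a CA1 transcription factor, followed at 1.40 ± 0.03, and Fibcd1, an acetyl-group receptor, at 1.06 ± 0.03.

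Of 19 general excitatory markers, 2 were called higher and 18 passed with a positive change (median 0.69). The called ones include Slc17a6, the vesicular glutamate transporter VGLUT2, at 1.02 ± 0.04. Slc17a7, the transporter VGLUT1 that most hippocampal excitatory neurons use, had 3620.1, 4483 and 5683 CPM in the captures, against 2152, 3712 and 4286 CPM in the Inputs. Its groups overlapped, and its log2 fold change was 0.35 ± 0.03. Nrgn, which binds calmodulin in spines, was at 0.92 ± 0.02. Cnih2, an AMPA receptor auxiliary subunit, was the 1 member that passed with a negative change (-0.15).

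Dentate granule markers had a median of 0.48 over 17 genes, with 1 called higher and 1 lower. Dsp, a desmosomal protein that marks granule cells, was at 1.19 ± 0.05, Calb1, a calcium buffer, at 0.93 ± 0.03, and Prox1, the granule cell transcription factor, at 0.36 ± 0.04. Glis3, a zinc finger factor with low counts here, was lower at -1.37 ± 0.10. Of 18 CA3 and CA2 markers none was called in either direction, with 5 passing above 0, 10 below and a median of -0.23. Rgs14, a CA2 signalling regulator, was at 0.84 ± 0.03, while Amigo2, an adhesion protein of CA2 and CA3, was at -0.91 ± 0.03. It had 20.8, 27 and 36.3 CPM in the captures, against 37.3, 52.6 and 66 CPM in the Inputs. Of 7 mossy cell markers, 1 was called higher (Sv2c, a vesicle protein, 1.11 ± 0.04) and 2 lower, with a median of -0.69. The lower ones include Calcrl, a peptide receptor that vessels also use (-1.87 ± 0.08).

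**Figure D2:**
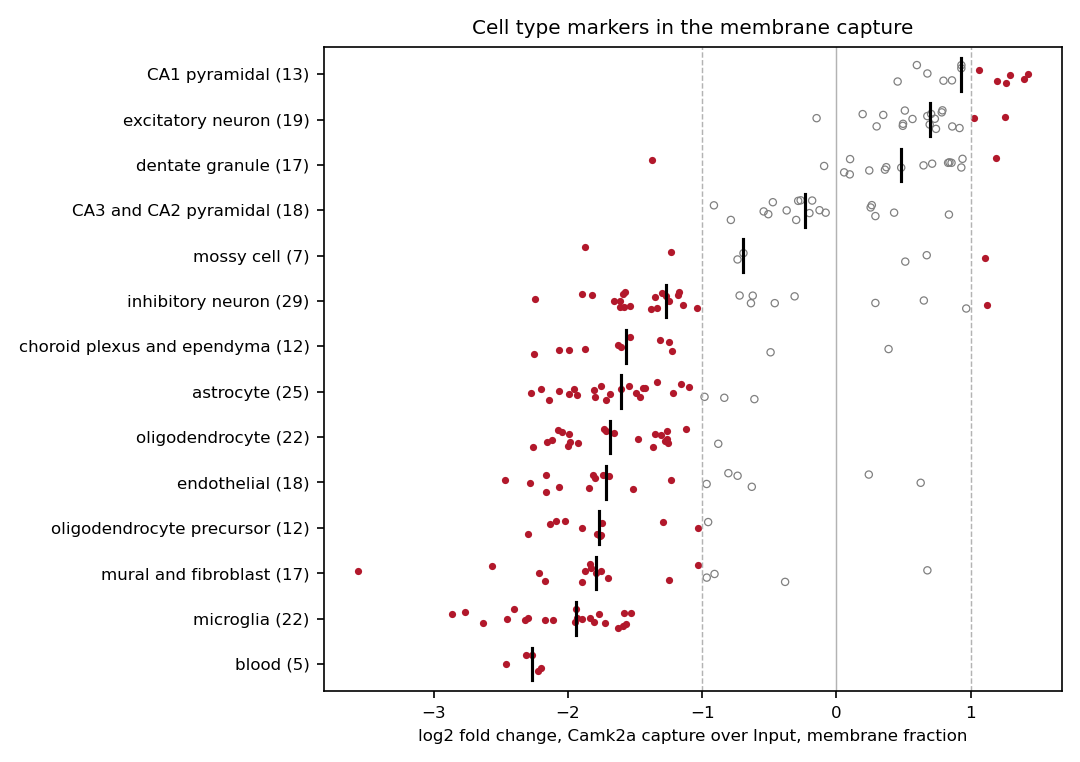
Log2 fold change of each tested marker gene, Camk2a capture over Input in the membrane fraction, by cell type with the number of genes in brackets. Filled points are called at a fold of 2, open points are not, black bars are list medians and dashed lines mark a fold of 2. CA1 markers have the highest median (0.93) and blood genes the lowest (-2.27).

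Inhibitory neuron markers were lower as a list, with exceptions. Of 29 genes, 20 were called lower and 1 higher, and the median was -1.27. Sst, the peptide somatostatin, had 151, 203 and 384 CPM in the captures, against 507, 626 and 753 CPM in the Inputs. The groups did not overlap, and the log2 fold change was -1.58 ± 0.06. The peptide gene Npy was at -1.82 ± 0.06 and Pvalb, a calcium buffer of fast-spiking cells, at -1.34 ± 0.06. Gad1, which makes GABA, was at -0.72 ± 0.04 and so short of a fold of 2.

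The gene called higher was Cck, a peptide that pyramidal cells also express. It had 1236, 1816 and 2436 CPM in the captures, against 658, 840.3 and 1043 CPM in the Inputs (1.12 ± 0.03), with no overlap. Nos1, the neuronal nitric oxide synthase (0.97 ± 0.03), Lamp5 (0.65 ± 0.02) and Kit, a receptor kinase (0.29), also passed with a positive change. Summed over the list, the level was 2558 to 3638 CPM in captures and 2971 to 3864 CPM in Inputs. These ranges overlap, and Cck alone accounts for 1236 to 2436 CPM of the capture sums.

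Glial markers were lower almost throughout. All 22 microglial genes were called lower (median -1.94), as were 21 of 22 oligodendrocyte genes (median -1.69), 22 of 25 astrocyte genes (median -1.61) and 11 of 12 genes of oligodendrocyte precursors (median -1.77). Cx3cr1, the microglial fractalkine receptor, had 13.7, 21 and 45.8 CPM in the captures, against 82.5, 93.7 and 120.4 CPM in the Inputs. The groups did not overlap (log2 fold change -2.11 ± 0.07). Gpr34 and P2ry12, further microglial receptors, were among the 12 genes with the largest loss, at -2.86 ± 0.08 and -2.77 ± 0.06.

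Gja1, the astrocyte gap junction protein connexin 43, had 81.0, 147 and 275 CPM in the captures, against 545, 668 and 878 CPM in the Inputs (-2.20 ± 0.06). Mbp, myelin basic protein of oligodendrocytes, was at -1.31 ± 0.04. Mbp had 508, 843 and 1247 CPM in the captures, against 1579, 2035 and 2598 CPM in the Inputs. The genes short of a fold of 2 all passed below 0, among them Glul, the astrocyte glutamine synthetase (-0.61 ± 0.05), and Aspa, an oligodendrocyte enzyme (-0.88 ± 0.07).

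None of these glial lists came to 0 in the captures. Summed astrocyte markers were at 5393 to 12549 CPM in captures and 18864 to 25351 CPM in Inputs, summed oligodendrocyte markers at 1287 to 4239 CPM in captures and 5772 to 9058 CPM in Inputs, and summed microglial markers at 266 to 757 CPM in captures and 1465 to 1849 CPM in Inputs. Glial RNA that remained in the captures, and its part in the other differences given here, was not tested.

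Most vessel, barrier and blood genes were lower as well. Of 18 endothelial genes 12 were called lower (median -1.72), with Cldn5, a tight junction protein, at -1.81 ± 0.06. Egfl7, which vessel cells secrete, was 1 of 2 that passed above 0, at 0.63 ± 0.03. Summed endothelial markers were not lower: they were at 1426 to 2141 CPM in captures (median 1711) and 1327 to 1949 CPM in Inputs (median 1688). Of 17 mural cell and fibroblast genes 13 were called lower and 1 passed above 0 (median -1.79). Choroid plexus and ependymal genes numbered 10 called lower of 12, with 1 passing above 0 (median -1.57). All 5 blood genes were called lower (median -2.27), with Hbb-bs, a beta-globin, at -2.22 ± 0.07. Ttr, the transthyretin of choroid plexus, ranged from 0.734 to 1552 CPM over captures and from 6.14 to 3559 CPM over Inputs, a spread between mice far above its difference in each pair (-1.31 ± 0.12).

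Transcripts of the mitochondrial genome were lower without exception among those tested. All 12 tested of 15 were called lower, with a median of -2.91. In sum they took 0.754 to 1.28% of the counts in captures and 5.6 to 8.66% in Inputs. The mt-Cytb transcript, for cytochrome b, had 1043, 1402 and 1912 CPM in the captures, against 10590, 13579 and 16477 CPM in the Inputs. No capture reached any Input, and the log2 fold change was -3.24 ± 0.04 (adjusted p = 5.83e-31). The complex I transcripts mt-Nd2, mt-Nd4 and mt-Nd1 were at -3.30 ± 0.05, -2.97 ± 0.05 and -2.91 ± 0.04. The large ribosomal RNA mt-Rnr2 was at -2.92 ± 0.05, and mt-Co1, a cytochrome oxidase subunit, at -2.10 ± 0.04. The nominally largest loss, of mt-Nd3 (-3.68 ± 0.22), rests on 0 to 2.49 CPM in captures and 0 to 30.4 CPM in Inputs. Nuclear copies of mitochondrial sequence can share reads with these genes.

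Bc1, a short RNA polymerase III transcript that neurons carry into dendrites and that is not translated, had the largest loss of all named genes. It lies on the forward strand at chr7:144914470-144914637 (GRCm38), within a single exon of 168 bases in GENCODE vM21. Its sequence is shown because no other named gene lost more, and capitals mark the A-rich stretch in its middle (positions 77 to 136 from the 5′ end, 49 of 60 bases A).
Bc1: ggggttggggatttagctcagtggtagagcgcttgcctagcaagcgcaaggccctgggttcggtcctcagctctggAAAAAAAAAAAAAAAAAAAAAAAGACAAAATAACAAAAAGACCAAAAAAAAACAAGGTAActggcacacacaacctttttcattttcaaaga
Bc1 had 0, 0.181 and 0.417 CPM in the captures, against 8.73, 16.9 and 34.2 CPM in the Inputs. That is 0 to 9 reads per capture library, with none in 2 of them, against 122 to 663 reads per Input library. The fitted log2 fold change was -6.72 ± 0.11 (adjusted p = 6.9e-37). With so few reads in the captures this fitted value depends on the prior count.

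The noncoding RNA list, which includes Bc1, had 23 of 28 genes passing below 0. Of the 28, 13 were called lower and none higher, with a median of -0.80. Malat1, a nuclear RNA of splicing speckles, had 12.2, 29.6 and 88.4 CPM in the captures, against 265, 462 and 796 CPM in the Inputs. The groups did not overlap (-3.79 ± 0.13). Neat1, the scaffold of paraspeckles, was at -2.81 ± 0.08, Rn7sk, which holds the elongation factor P-TEFb, at -2.85 ± 0.22 from under 1.31 CPM, and Meg3, an imprinted RNA, at -1.53 ± 0.06. Snhg1, a host of small nucleolar RNAs, passed with a positive change (0.36). By annotation class, 35.5% of 1384 tested genes that are neither coding nor pseudogenes were called lower, against 15.3% of 14248 coding genes. Fam163a (-2.83 ± 0.08) and Selenop, a selenium carrier (-2.70 ± 0.07), complete the 12 genes with the largest loss. Of these 12, Malat1, Neat1, mt-Nd2, mt-Nd4, mt-Nd1, P2ry12 and Selenop have exons that overlap another gene.

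Among receptors and channels of the neuronal surface, gains outnumbered losses. Of 28 ionotropic glutamate receptor genes 4 were called higher and 3 lower (median 0.35). The NMDA receptor genes split. Grin1, the obligatory subunit, had 446, 592 and 795 CPM in the captures, against 122, 321 and 388 CPM in the Inputs. Grin1 was at 1.00 ± 0.05 and Grin2a at 1.13 ± 0.02, beside Grin2b. Without mice 16, 22 and 30 Grin1 was at 0.90 and no longer reached a fold of 2.

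Grin2c went the other way. It had 11.4, 17.3 and 31.1 CPM in the captures, against 57.5, 83.6 and 109 CPM in the Inputs (-2.27 ± 0.07), and Grin2d was also called lower (-1.05). Grik1, a kainate receptor subunit of interneurons, was at -1.29 ± 0.05. Cacng8, the AMPA receptor auxiliary TARP gamma-8, was called higher at 1.40 ± 0.06, whereas the AMPA subunits Gria1 and Gria2 were at 0.74 ± 0.02 and 0.87 ± 0.02.

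Of 29 voltage-gated sodium and calcium channel and calcium release genes, 7 were called higher and none lower (median 0.76, 27 passing above 0). Cacna1e, the pore of R-type calcium channels, had 217, 277 and 364 CPM in the captures, against 81.5, 113 and 145 CPM in the Inputs (1.32 ± 0.02). Ryr2, a calcium release channel of the endoplasmic reticulum, was at 1.3 ± 0.05, Cacna2d1, an auxiliary subunit, at 1.26 ± 0.02, Cacna1b, of N-type channels, at 1.2 ± 0.05, and Scn8a, the sodium channel Nav1.6, at 1.15 ± 0.02. Itpr2, an inositol trisphosphate receptor of glia, was at -0.76 ± 0.05. Of 43 potassium channel genes 1 was called higher and 2 lower (median 0.35). Kcnh7, of the Erg family, was at 1.26 ± 0.03, and Kcnj10, the inward rectifier of astrocytes, at -1.22 ± 0.06.

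Metabotropic receptors had a median of 0.44 over 20 genes, with Grm3, a glutamate receptor that astrocytes also make, the 1 called lower (-1.21 ± 0.04). Of 14 GABA-A receptor genes 1 was called lower, Gabrg1 at -1.46 ± 0.04. Of 49 synaptic adhesion genes 4 were called higher (median 0.50), including the teneurin Tenm2 at 1.29 ± 0.03 and Nlgn2, a neuroligin of inhibitory synapses, at 1.15 ± 0.04. Tenm2 had 219, 264 and 341 CPM in the captures, against 66.2, 109 and 137 CPM in the Inputs.

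Of 43 axon guidance genes 3 were called higher and 2 lower (median 0.42). Epha4, an ephrin receptor, was higher at 1.25 ± 0.02, with 601, 753 and 926 CPM in the captures, against 272, 314 and 371 CPM in the Inputs. Plxnb1 and Sema6a, a semaphorin receptor and a semaphorin, were lower at -1.98 ± 0.10 and -1.26 ± 0.05. Fgf1 (-2.09 ± 0.08) and Igf1 (-1.83 ± 0.08), growth factors, were among 7 neuropeptide and secreted genes called lower of 34 (median 0.43), of which Sst, Npy and Tac1 stand on the inhibitory list too. Penk, which encodes enkephalins, was higher at 1.26 ± 0.03. Bdnf, the neurotrophin, had 87.4, 125 and 146 CPM in the captures, against 54.8, 63.3 and 79.6 CPM in the Inputs (0.99 ± 0.03).

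Genes whose proteins work inside the cell had list medians in the same range. Of 30 postsynaptic scaffold genes 3 were called higher (median 0.35), among them Baiap2, an actin organizer of spines (1.33 ± 0.02), and Agap2, an Arf-GTPase activator (1.12 ± 0.10, or 0.95 without mice 16, 22 and 30). Of 40 brain kinase genes 4 were called higher and 1 lower (median 0.50). The higher ones include Lmtk3 and Hipk4. The lower one was Hipk2, a relative of Hipk4, with 47.3, 70.5 and 140.4 CPM in the captures, against 134, 269 and 311 CPM in the Inputs (-1.85 ± 0.08). Its groups overlapped. In mice 16, 22 and 30 its log2 ratios were -1.39 to 0.06, against -2.58 to -1.36 in the other mice.

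Microtubule and motor genes split. Of 31 genes 2 were called higher, Kif21a (1.04 ± 0.03) and Map1a (1.02 ± 0.02, or 0.98 without mice 16, 22 and 30), and 1 lower, against a median of 0.47. The lower one was Kif5a, a neuronal kinesin heavy chain that carries cargo along axons. It had 556, 705 and 1047 CPM in the captures, against 2089, 2908 and 3262 CPM in the Inputs. No capture reached any Input, and the log2 fold change was -2.01 ± 0.05. Its paralog Kif5b was at -0.70 ± 0.02, and the log2 fold change of Kif5c, another paralog, did not pass.

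Of 41 activity-regulated genes 4 were called higher and 3 lower (median 0.53). Rasd1, a Ras-like protein, was at 1.42 ± 0.03, and the transcription factors Junb, Nr4a3 and Egr1 were at 1.22 ± 0.03, 1.13 ± 0.04 and 1.07 ± 0.03. Junb had 79.7, 124 and 168 CPM in the captures, against 33.6, 53.8 and 63.4 CPM in the Inputs. Klf4 (-1.73 ± 0.17) and Cyr61 (-1.74 ± 0.09), immediate-early genes that vessel cells also use, were lower from low counts. Fos was at 0.67 ± 0.06 and Arc at 0.52 ± 0.03. Of 40 chromatin modifier genes 3 were called higher (median 0.42), with the remodeler Chd4 at 1.26 ± 0.04.

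Several lists had few or no genes past a fold of 2, while most of their genes passed above 0, against 41.1% of all genes. All but 1 of 31 proteasome genes passed above 0 (median 0.70), up to 1.00 for Psmb5, a catalytic subunit just short of the fold needed. Of 30 synaptic vesicle genes 26 passed above 0 and 3 below (median 0.51), with Bsn, the active zone protein Bassoon, at 0.98 ± 0.05 and Rims1 at -0.30 ± 0.04. Of 37 nuclear genes of oxidative phosphorylation 30 passed above 0 and 5 below (median 0.29), the reverse of the mitochondrially encoded subunits of the same complexes.

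Genes of the endoplasmic reticulum itself also passed mostly above 0. Of 26 chaperone genes 21 passed above 0 and 2 below (median 0.33). Hspa5, the main chaperone BiP, had 513, 731 and 1633 CPM in the captures, against 331, 476 and 921 CPM in the Inputs, with overlap (0.62 ± 0.02). Of 33 genes listed for the translocon and signal recognition 26 passed above 0 and 4 below (median 0.24), with Tram1 lowest at -0.67 ± 0.03. The 1 called higher was Wfs1, a protein of the endoplasmic reticulum membrane that also stands on the CA1 list. No other gene of this list was called higher. Sec61a1, the translocon channel, was at -0.25 ± 0.03. Cholesterol synthesis genes leaned the other way, with 15 of 22 passing below 0 (median -0.16) and Idi1, an isomerase of the pathway, called lower (-1.04 ± 0.08). Ribosomal protein genes passed in both directions: the medians were -0.01 over 44 large-subunit and -0.07 over 31 small-subunit genes. Of the large-subunit genes 16 passed above 0 and 18 below, and of the small-subunit genes 8 and 14. The shares of all genes were 41.1% above and 42.9% below, near those of the large subunit. The list medians of both subunits differed in sign between the 3 runs of mouse numbers. For the large subunit the typical (median) mouse was at 0.12 in the first run (1 to 11), -0.10 in the next (12 to 22) and -0.13 in the last (23 to 30), and for the small subunit at 0.10, -0.19 and -0.24. With upper-quartile scaling the list medians over all mice were -0.06 for the large and -0.12 for the small subunit. Many ribosomal protein genes have processed copies that can share reads.

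Counts over the lists changed little without mice 16, 22 and 30. Called higher were then 6 of 29 sodium and calcium channel genes, 3 of 49 adhesion, 3 of 28 ionotropic glutamate receptor, 2 of 43 axon guidance, 2 of 30 scaffold, 2 of 40 chromatin and 1 of 31 microtubule genes. Activity-regulated genes called higher numbered 5 of 41, neuropeptide and secreted genes 3 of 34 and proteasome genes 1 of 31. Called lower were 23 of 25 astrocyte, 12 of 12 oligodendrocyte precursor and 2 of 22 cholesterol synthesis genes. The counts of the other lists given here were the same.

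**Figure D3:**
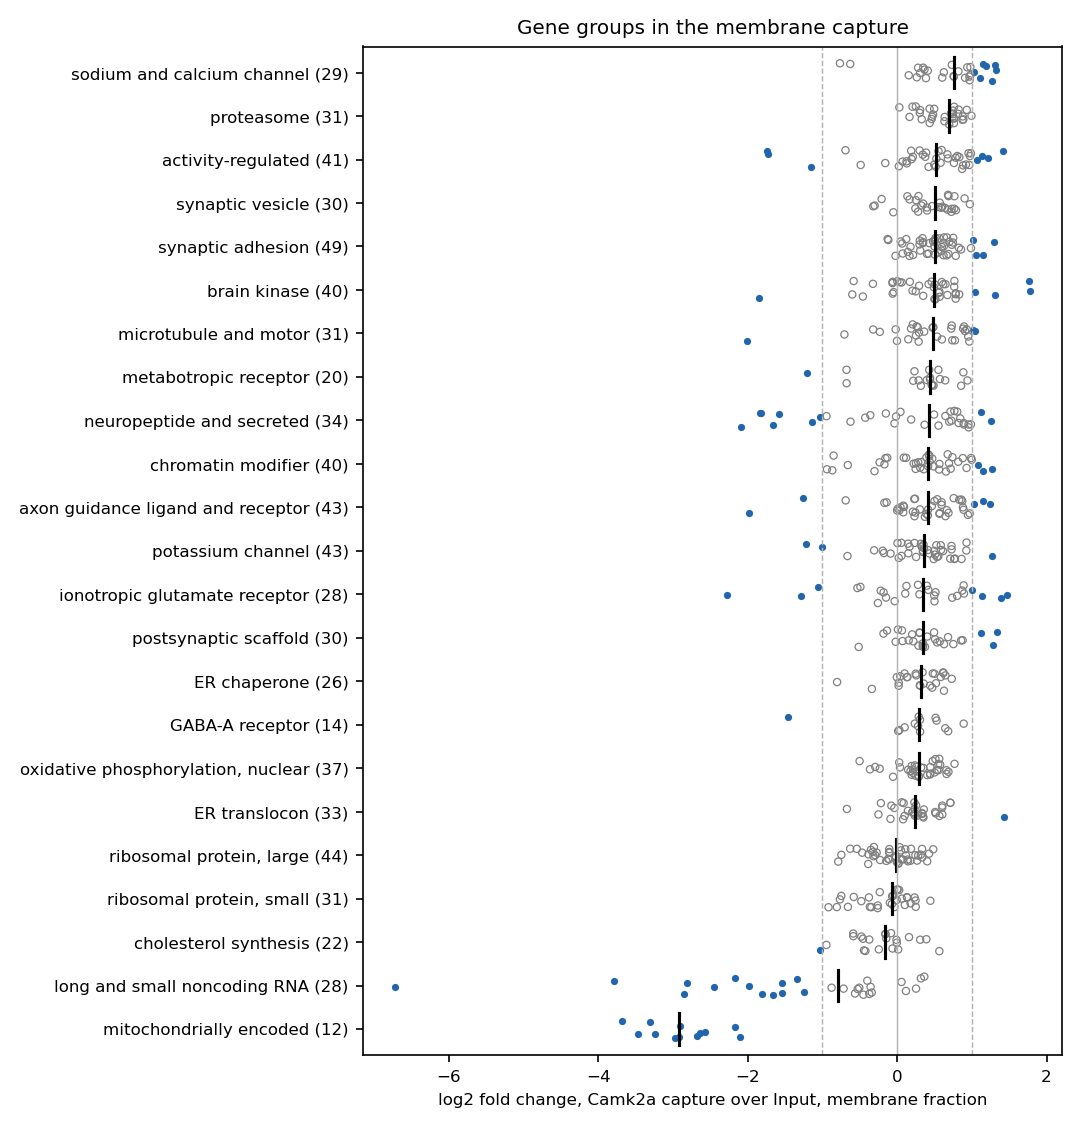
Log2 fold change of each tested gene, Camk2a capture over Input in the membrane fraction, by gene group with the number of genes in brackets. Filled points are called at a fold of 2, open points are not, and black bars are list medians. The list medians run from 0.76 for sodium and calcium channels to -0.16 for cholesterol synthesis, and the noncoding and mitochondrially encoded lists have their medians at -0.80 and -2.91.

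Genes called in either direction were described by 2 features of their products, coding length and a predicted membrane segment. A hydrophobic segment, here a window of 19 residues with mean Kyte-Doolittle hydropathy of at least 1.6, was present in the protein of 46.4% of coding genes called higher (121 of 261), 49.2% of those called lower (1069 of 2173) and 37.3% of all tested (5309 of 14242). These shares describe both directions and carry no test. Median coding length was 1974 bases among genes called higher, 1272 among those called lower and 1422 over all. With coding genes split into 4 classes of like size, 3.21% of the longest (2283 bases or more) were called higher and 12.3% lower, while of the shortest (up to 888 bases) 1.29% were called higher and 18.1% lower.

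Most marker lists, though not those of CA3 and CA2 or mossy cells, held the direction of their median in every mouse but not its size. The median log2 ratio of CA1 markers lay between 0.80 (mouse 14) and 1.27 (mouse 30), and that of excitatory markers between 0.51 and 0.81, all above 0. The median of inhibitory markers ranged from -1.86 (mouse 25) to -0.38 (mouse 22), that of astrocyte markers from -2.35 (mouse 1) to -0.84 (mouse 22) and that of microglial markers from -2.62 (mouse 25) to -1.09 (mouse 22). Mouse 22 was thus the least depleted for all 3 lists, and mouse 21 came next for them. Without mice 16, 22 and 30 the upper ends were -0.74, -1.04 and -1.28. CA3 and CA2 markers had a median below 0 in 28 of 30 mice and the 7 mossy cell markers in 23, with a range from -1.06 to 0.61.

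**Figure D4:**
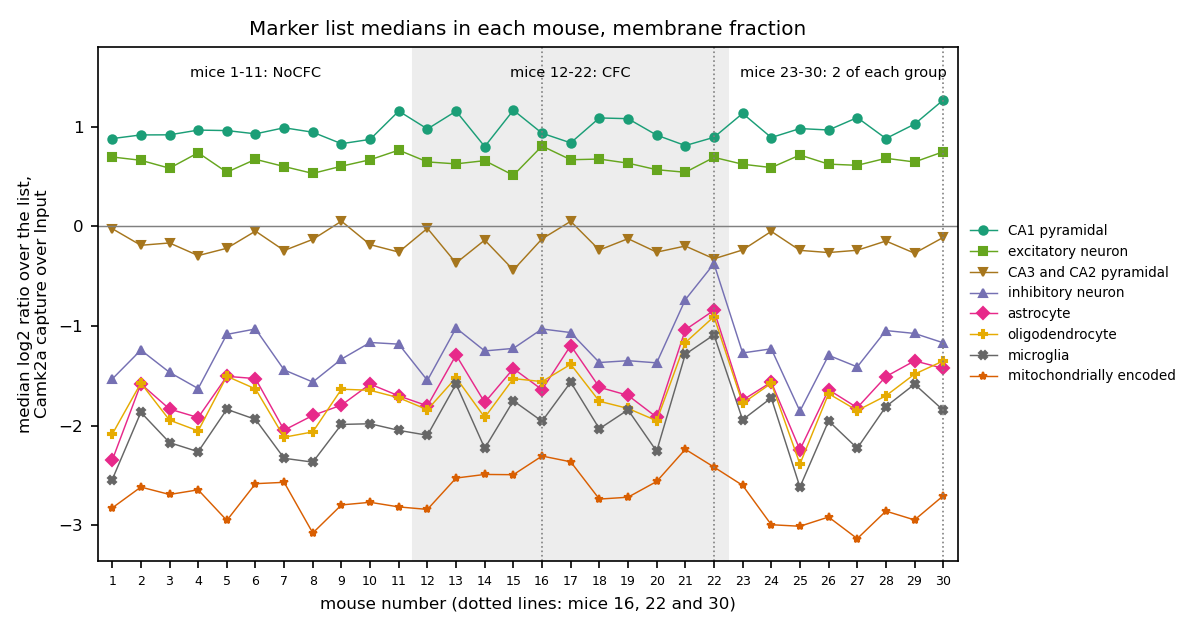
Median log2 ratio of the Camk2a capture over Input for 8 gene lists in each of 30 mice, ordered by mouse number with the runs of numbers marked and dotted lines at mice 16, 22 and 30. CA1 and excitatory medians are above 0 in all 30 mice, the inhibitory, glial and mitochondrial ones below 0 in all 30, and mice 21 and 22 have the least negative glial medians.

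Single genes differed between runs of mouse numbers. Malat1 had log2 ratios of -3.53 to -2.36 in mice 1 to 11, -5.53 to -3.70 in mice 12 to 22 and -4.78 to -3.87 in mice 23 to 30, so that no mouse of the last 2 runs was as high as any of the first. Hipk4 did not show this, with fitted log2 fold changes of 1.75, 1.77 and 1.76 in the 3 runs. Wfs1 was at 1.24, 1.51 and 1.57, and mt-Cytb at -3.39, -3.00 and -3.39. Fitted on each of the 4 groups alone, the capture comparison called 368 genes higher and 1921 lower in CFC SD (14697 tested). The counts were 236 and 2102 in CFC Sleep (14476 tested), 339 and 2264 in NoCFC SD (14717) and 268 and 2193 in NoCFC Sleep (14723). Mice 22 and 30 are in CFC SD and mouse 16 in CFC Sleep, and their Input libraries stood apart.

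Whether sleep loss changed what the capture holds relative to Input was tested as an interaction, SD minus Sleep, averaged over training. Of 16128 genes 1 passed (0.0062%) and was lower, and 786 had an unadjusted p under 0.05, where chance gives 806 (edgeR quasi-likelihood test). That gene was Sgk1, a kinase induced by glucocorticoids. Over all mice Sgk1 had 28.9, 40.0 and 81.9 CPM in the captures, against 32.7, 42.5 and 161 CPM in the Inputs, with overlap. Its log2 fold change, capture over Input, was -0.77 in CFC SD, -0.10 in CFC Sleep, -0.27 in NoCFC SD and 0.05 in NoCFC Sleep. The interaction was -0.49 ± 0.07 (adjusted p = 0.000573), and it no longer passed in mice 23 to 30 alone (-0.51, adjusted p = 0.751).

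The same test for conditioning, CFC minus NoCFC, passed for 269 genes (1.67%) that were higher with CFC and 200 (1.24%) that were lower. L1cam, an axonal adhesion protein, had a capture difference of 1.13 in CFC SD and 0.94 in CFC Sleep, against 0.69 in NoCFC SD and 0.67 in NoCFC Sleep. Its interaction was 0.35 ± 0.05 (adjusted p = 0.000164). Sez6, a membrane protein of dendrites, followed at 0.34 ± 0.05 and Lrp1, an endocytic lipoprotein receptor, at 0.29 ± 0.05. Vdac1, the outer mitochondrial membrane channel, was at -0.21 ± 0.03, Acot7, an acyl-CoA thioesterase, at -0.24 ± 0.04 and Pgam1, a glycolytic enzyme, at -0.27 ± 0.04. In either direction 2.91% of all genes passed. Of the lists, microtubule and motor genes had 4 higher and 6 lower of 31, proteasome genes 0 and 9 of 31, nuclear oxidative phosphorylation genes 0 and 9 of 37, and small-subunit ribosomal protein genes 0 and 5 of 31. Synaptic adhesion genes had 5 higher and 0 lower of 49, noncoding RNAs 0 and 4 of 28, and CA1 markers 3 and 1 of 13. The other lists had 3 or fewer genes that passed.

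Conditioning and run coincide in mice 1 to 22 and cannot be told apart there. With the run as a term, which leaves the estimate to mice 23 to 30, no gene passed, and 664 had an unadjusted p under 0.05. L1cam was then at 0.32 and Vdac1 at -0.10, both with adjusted p = 1. In mice 23 to 30 fitted alone, no gene passed and 808 had an unadjusted p under 0.05 (edgeR quasi-likelihood test). Mouse 30, a CFC mouse whose Input library stood apart, is among these mice. Without mice 16, 22 and 30 the counts were 186 higher and 128 lower. Malat1 had an interaction of -1.22 ± 0.24 (adjusted p = 0.00843), but -0.02 with the run as a term.

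The same capture in the cytosolic fraction of the same mice is the closest comparison of the series. Membrane and cytosolic capture differences were set against each other in a fit of 120 libraries. The block was the mouse within each fraction, so both fractions of a mouse were treated as independent in the calls and SE. Of 17054 genes 1305 (7.65%) had a difference at least 2-fold higher in the membrane fraction and 109 (0.639%) at least 2-fold lower. Most lists of markers of cells other than principal neurons were less reduced in the membrane fraction. Among inhibitory markers 19 of 29 were called higher in this contrast, among oligodendrocyte and microglial markers 19 of 22 each, and among astrocyte markers 16 of 25, with none lower in these lists. The counts were 8 of 12 for oligodendrocyte precursor genes, 9 of 17 for mural cell and fibroblast genes, 8 of 12 for choroid plexus and ependymal genes and 5 of 5 for blood genes, again with none lower. Endothelial markers went both ways, with 8 of 18 called higher and 2 lower.

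Sst had a log2 fold change, capture over Input, of -1.58 in the membrane fraction and -3.66 in the cytosolic one (difference 2.08 ± 0.08). Gja1 was at -2.20 in the membrane fraction and -3.92 in the cytosolic one (difference 1.72 ± 0.09). The largest differences were those of mt-Rnr1 (3.44 ± 0.09), mt-Rnr2 (3.36 ± 0.07), mt-Nd1 (3.14 ± 0.07), mt-Cytb (3.10 ± 0.07) and mt-Nd4 (3.10 ± 0.08). CA1 markers did not differ by a fold of 2 in any of 13 cases, with a median difference of 0.09, and Wfs1 was at -0.02 ± 0.06.

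Several glutamate receptor genes gained more over Input in the membrane fraction, by less than a fold of 2. The difference was 0.68 ± 0.03 for Grin2b, 0.68 ± 0.04 for Grin2a, 0.51 ± 0.03 for Gria1 and 0.95 ± 0.08 for Cacng8, while it was 0.03 ± 0.03 for Gria2. Genes called lower in this contrast include kinesins. Kif5b was lower in the membrane capture than in Input (-0.70) but higher in the cytosolic one (0.52), a difference of -1.22 ± 0.03, and Kif5a differed by -1.18 ± 0.06. Emx2, a cortical transcription factor, differed by -1.59 ± 0.07, with a log2 fold change of -2.15 ± 0.06 in the membrane fraction and -0.56 in the cytosolic one. Trp53inp2, an autophagy protein, Chuk, a kinase of the NF-kappa-B pathway, and D3Ertd751e differed by -1.24 ± 0.04, -1.23 ± 0.07 and -1.21 ± 0.07.

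**Figure D5:**
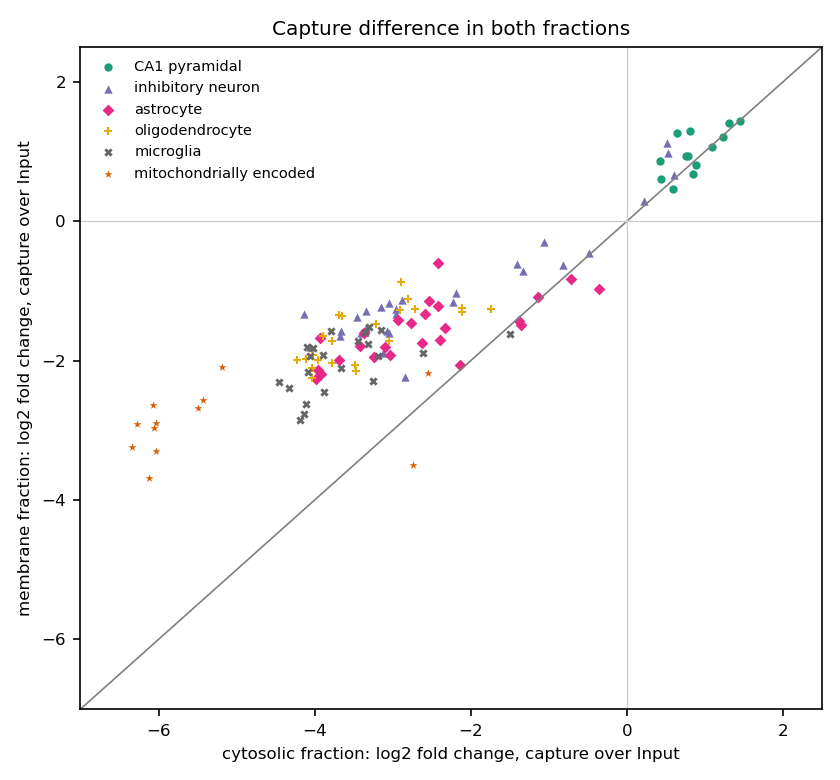
Log2 fold change, Camk2a capture over Input, in the membrane fraction (vertical) and the cytosolic fraction (horizontal) for genes of 6 lists, with the line of equal values. CA1 markers lie near the line, while most inhibitory, glial and mitochondrially encoded genes lie above it, less reduced in the membrane fraction.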

How the data were processed

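RNA was measured in membrane pellets of 30 mice, in the HA capture and the Input of each. The authors deposited a table of raw counts per gene for 54429 genes and 180 libraries. The kit was SMART-seq v4, per the labels' protocols, and the submitters' processing notes name STAR 2.6.1a, featureCounts, MultiQC 1.6a0 and GRCm38.p6. The counting strand is not given in the sources used here.

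Counts were fitted with edgeR 4.0.16 (R 4.3.3): filterByExpr, TMM scaling, mouse as a block, a capture effect in each of 4 groups averaged with equal weight, the robust quasi-likelihood F-test and Benjamini-Hochberg adjustment over all genes tested. A call needed an adjusted p under 0.05 and a fold of 2, and interactions needed the adjusted p alone. The fraction contrast used 120 libraries, with the mouse within each fraction as the block, and so did not pair the fractions of a mouse. CPM values use TMM library sizes, and ratios per mouse a prior count of 2. DESeq2 1.42.0 and limma 3.58.1 were alternatives. The fits were also run on simulated data in which a minority of genes changed, as many up as down, with no Input libraries set apart. Those runs do not cover a change of most genes with more losses than gains, as seen here.

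Libraries of the same number come from the same animal, per the extract protocol, in which a fraction is divided into Input and captures. After removal of group means, capture and Input of a mouse correlated at a median of 0.386, against -0.02 for different mice. Replicates differed by more than sampling noise, with a chi-square of at least 3.6 for each degree of freedom between any 2 of a group. Whether the mice of a group shared litters or days is not given in the sources used here.

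The members and the 37 lists were chosen with earlier results of these data known. The text names the 12 genes each way with the largest change among called genes whose average log2 CPM reached 3, 5 each way for the fraction contrast, 3 each way for interactions, and list members. Some listed genes are not reported here by name. Of 963 listed genes 960 were in the table and 951 passed the filter on low counts. Positions are from GENCODE vM21, which held 98.9% of the symbols, and 343 of 973 genes named or listed have exons that overlap another gene. Proteins were translated from the longest GENCODE coding sequence. Precision is lowest where counts are few, and without molecular identifiers several reads can stem from 1 molecule.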

Additional observations from a re-analysis of the deposited data

Results flagged for a closer look

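Values are log2 ratios of the Camk2a capture over Input in the membrane fraction. Of 68 combinations of a gene or list with a group of 7 or 8 mice, 4 held a mouse far from the others, where chance gives about 1 in 20. In CFC Sleep, mouse 16 had a Camk2a ratio of 1.96, against 0.508 to 0.722 in the other mice of that group, and an Lmtk3 ratio of 3.30, against 1.5 to 1.71. In CFC SD, mouse 22 had a Kif5a ratio of -0.996, against -2.24 to -1.71 in the others. In NoCFC Sleep, mouse 23 had a CA1 list median of 1.13, against 0.880 to 0.966. Mice 16 and 22 are among those whose Input libraries stood apart. The rule looks for a single mouse apart from its group, and it did not flag mice 22 and 30, both in CFC SD, for Camk2a or Lmtk3. Over mice 16, 22 and 30 the Camk2a ratios were 1.555 to 2.10, against 0.44 to 0.92 in the other mice. The Lmtk3 ratios were 2.93 to 3.47, against 1.07 to 1.935.

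For these genes an interaction term of the capture difference passed in the fit of all mice. Between SD and Sleep it was -0.49 for Sgk1. Between CFC and NoCFC it was 0.35 for L1cam, 0.34 for Sez6, 0.29 for Lrp1, -0.21 for Vdac1, -0.24 for Acot7 and -0.27 for Pgam1. Between the membrane and the cytosolic fraction it was 3.44 for mt-Rnr1, 3.36 for mt-Rnr2, 3.14 for mt-Nd1, 3.10 for mt-Cytb, 3.10 for mt-Nd4, -1.59 for Emx2, -1.24 for Trp53inp2, -1.23 for Chuk, -1.22 for Kif5b and -1.21 for D3Ertd751e.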

How the results depend on the processing

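Of 311 genes higher in the capture, the count was 663 with no filter on low counts (42337 genes tested, all-gene median 0.14), 199 with a CPM of 1 needed in 30 libraries (13604 genes tested) and 186 with glmTreat against a fold of 2. Under the other settings it stayed within 1.5 times, and the 2735 lower genes did so under all settings run. Single runs, single groups and the fits without pairing by mouse (306 higher, 2713 lower) were among these. DESeq2 called 297 higher and 2810 lower. The 30 genes followed in the capture comparison kept their direction and call in all 505 checks, and those of the fraction contrast in all 40. Most of the 30, and all of the fraction contrast, were picked for large changes in these same libraries. These checks therefore add no separate support. Camk2a and Rpl22 were not called, and for them the lack of a call was kept.

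For SD minus Sleep, 18 genes were higher and 4 lower with no filter, and 1 was higher without mice 16, 22 and 30, a setting added after seeing the data. There were 0 lower genes without the replicate block (479 at an unadjusted p under 0.05, edgeR) and 0 in mice 23 to 30 (765). For CFC minus NoCFC, 0 genes were higher and 0 lower without the replicate block (1975 at an unadjusted p under 0.05, edgeR), 0 and 0 in mice 23 to 30 (808), and 0 and 0 with the run as a term, also added later (664). There were 958 higher genes with no filter, and 128 lower without mice 16, 22 and 30. The cause was not tested. The 6 genes named for conditioning kept their direction under all 6 settings and lost the call in 18 of 36 checks, and Sgk1 in 2 of 6. Without the block 303 of the 311 higher and 2704 of the 2735 lower capture calls were shared. Depth limits genes with few counts, such as Bc1 in the captures.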
